A study of Homo sapiens with 6 samples.

Results

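The genes that encode the chains of an antibody and of the B-cell receptor were followed in NCI-H929 (H929), a cell line established from multiple myeloma, a malignancy of plasma cells, which secrete antibody. The members were 10 genes chosen by symbol, of 62703 genes in the deposited tables: the heavy chain constant genes IGHA1, IGHA2, IGHM and IGHG1, the light chain constant genes IGKC, IGLC2 and IGLC3, the joining chain gene JCHAIN, and CD79A and CD79B. H929 cells labelled wild type received the MALT1 protease inhibitor Mi-2 at 1 µM for 24 h, or the solvent DMSO, and each treatment gave 3 paired-end RNA sequencing libraries. Both groups come from the same line, and the labels do not state separate cultures for the libraries. The p-values therefore measure library-to-library spread only, which may be technical. Total estimated counts per library ran from 19980689 to 23756745.

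An antibody is built from paired heavy and light chains, and each chain joins a variable segment, chosen by rearrangement of DNA, to a constant region. The heavy constant gene sets the class (IGHM for IgM, IGHG1 for IgG1, IGHA1 and IGHA2 for IgA), and the light chain is either kappa (IGKC) or lambda (the IGLC genes). JCHAIN encodes the joining chain that links IgA or IgM units into polymers. On B cells, membrane-bound antibody signals through the CD79A and CD79B proteins, which act as a pair, and plasma cells normally lower this receptor while secreting antibody in bulk. H929 was described at its establishment as a producer of IgA with kappa light chains.

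The libraries carried the markers of plasma cells. All 11 plasma cell markers were measured, the lowest being CD38 at a mean of 61.3 TPM (a transcript level corrected for gene length and library size). Their sums were 9926 to 13813 TPM under DMSO and 10981 to 14195 TPM under Mi-2, with JCHAIN the highest. CD38 itself fell with Mi-2, from 297 ± 75.5 to 164 ± 41.5 CPM (SD, n = 3; log2 fold change -0.86 ± 0.21, edgeR adjusted p = 0.0296). That call was lost when library 2 of DMSO (0.105), library 1 of Mi-2 (0.101) or library 3 of Mi-2 (0.0681) was left out, and by limma on log2(TPM + 1) (0.115) or log2(TPM + 0.1) (0.109). CPM are counts scaled to library size. Of the same 11 markers, MZB1 (log2 fold change 0.70 ± 0.11, edgeR adjusted p = 0.00576), DERL3 (0.61 ± 0.16, 0.0378) and IRF4 (0.35 ± 0.09, 0.0441) rose. XBP1, POU2AF1 and JCHAIN, given below, were not called. Of 10 markers of mature B cells, 6 stayed under 1 TPM in every library, among them MS4A1, PAX5 and CR2, and CD22 was listed at 0; the 10 summed to 8.09 to 13.7 TPM under DMSO and 6.27 to 8.96 TPM under Mi-2. Of 12 T and NK cell markers 9 were under 1 TPM, with CD3D and CD8A at 0, and their summed level of 87.7 to 93.8 TPM under DMSO and 97.2 to 118 TPM under Mi-2 came mostly from NCAM1 (54.1 to 69.9 TPM) and CD3E (29.3 to 46.5 TPM). Of 10 myeloid markers 8 were under 1 TPM, with ELANE at 0, and their sum, nearly all CD68, was 29.4 to 40.01 TPM under DMSO and 56.6 to 78.5 TPM under Mi-2. Of 11 fibroblast, endothelial and epithelial markers 8 were under 1 TPM, with COL1A2, COL3A1 and CDH5 at 0. The sums were 69.6 to 88.3 TPM under DMSO and 88.2 to 125 TPM under Mi-2. They came mostly from PECAM1 (58.9 to 102 TPM), then KRT18 (5.95 to 17.8 TPM) and KRT8 (2.42 to 5.32 TPM). Mitochondrial genes took 4.47 to 4.98% of counts under DMSO and 5.20 to 5.34% under Mi-2. The part of these shifts in the results below was not tested. In bulk RNA, fewer cells of a type and less RNA per cell cannot be told apart.

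Kappa light chain RNA and joining chain RNA were among the most abundant in the cells, and heavy chain constant RNA was far lower. IGKC (chromosome 2, 88857161 to 88857683, minus strand, GRCh38) stood at 16344, 15951 and 19149 TPM in DMSO libraries 1 to 3 and at 16476, 15525 and 18677 TPM in Mi-2 libraries 1, 2 and 3. It ranked 5 among all genes by mean TPM under DMSO, library 3 was the highest in each group, and the groups overlapped. JCHAIN (chromosome 4, 70655541 to 70681817, minus strand) stood at 7519, 5864 and 5360 TPM under DMSO and at 7511, 6788 and 5294 TPM under Mi-2. It ranked 18, and library 1 was the highest and library 3 the lowest in each group, whereas for IGKC library 3 was the highest. CD79B followed at a mean of 53.0 TPM over the 6 libraries, then IGHA1 (14.1 TPM), IGLC2 (5.32 TPM), IGHA2 (2.91 TPM), IGLC3 (0.550 TPM), CD79A (0.470 TPM) and IGHG1 (0.0367 TPM). In this order the TPM ranges of IGKC and JCHAIN did not meet, nor did those of JCHAIN and CD79B or of CD79B and IGHA1. Those of IGHA1 and IGLC2, IGLC2 and IGHA2, and IGLC3 and CD79A overlapped, and IGHG1 lay below CD79A. The order of IGKC and JCHAIN depends on the unit. In CPM, not corrected for gene length, JCHAIN averaged 4632 and IGKC 3490 under DMSO, and 4851 and 3605 under Mi-2. IGHM (chromosome 14, 105851705 to 105856218, minus strand) had no count in any library, which allows up to 0.126 to 0.150 CPM per library, a limit that covers counting error only.

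**Figure D1:**
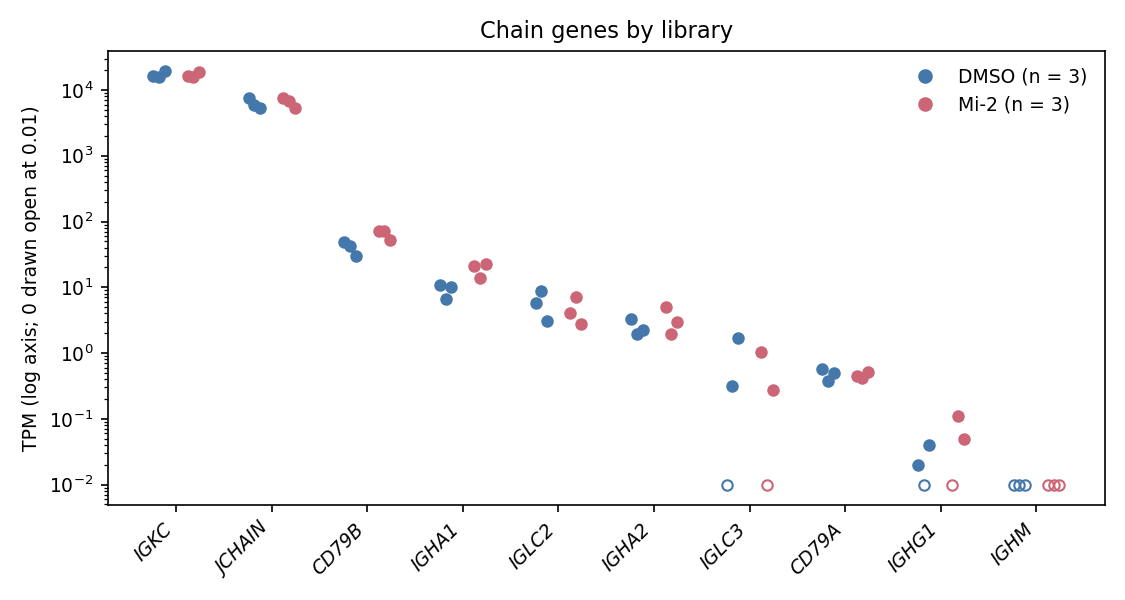
TPM (log axis) of the 10 chain genes in each library, DMSO in blue and Mi-2 in red, with libraries 1, 2 and 3 from left to right in each group and listed zeros drawn open at 0.01. IGKC and JCHAIN lie at 5294 TPM or more, CD79B and IGHA1 between 6.55 and 72.3 TPM, and IGHM is listed at 0 in all 6 libraries.

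The imbalance between light and heavy chain was large in every library. Per unit of IGHA1 plus IGHA2, IGKC was present at 1149, 1874 and 1548 in DMSO libraries 1 to 3 and at 637, 976 and 740 in Mi-2 libraries 1, 2 and 3, as ratios of TPM. The ratio was lower in each Mi-2 library than in any DMSO library. The size of the ratio depends on the unit. In counts, which are not corrected for gene length, IGKC had a mean of 75023 under DMSO and IGHA1 plus IGHA2 195. Under Mi-2 the means were 83226 and 392 (n = 3). Variable segments showed the same imbalance. Of 149 heavy variable rows, 9 had any count, 21.5 counts in all over the 6 libraries, and none passed the filter on low counts. Of 102 kappa variable rows 21 had a count, and they summed to 590098.

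A single kappa segment, IGKV3-15, took 99.2 to 99.4% of the kappa variable counts in each library. Its level was 36363, 34884 and 34644 TPM under DMSO and 28808, 25905 and 29543 TPM under Mi-2, which made it the highest gene by mean TPM under DMSO (rank 1). The next segments were IGKV3D-15 at a mean of 265 TPM and IGKV3D-11 at 31.0 TPM. IGKV3D-15 is a copy of IGKV3-15 elsewhere on chromosome 2. Over their reference coding sequences of 345 and 347 bases (GENCODE 29), 3 aligned bases differ (99.1% identity) and the copy has 2 more at its end. Of all 50-base windows in IGKV3-15, 61.8% occur unchanged in IGKV3D-15, so the split of reads between them is uncertain. IGKV3D-15 held 0.649 ± 0.109% of the counts of the pair under DMSO and 0.559 ± 0.0684% under Mi-2 (SD, n = 3). IGKV3D-11 is 94.5% identical to IGKV3-15, with 6.42% of windows shared.

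Of the 10 members, 6 passed the filter on low counts, and 2 of these rose with Mi-2, IGHA1 and CD79B, while none fell. Of the 16082 genes tested with edgeR's quasi-likelihood test, 5.02% rose at a Benjamini-Hochberg adjusted p under 0.05 and 6.03% fell. The median log2 fold change was 0.23 over the 6 members tested and 0.00496 over all genes tested. The count of members lower was also 0 at an unadjusted p under 0.05 in edgeR, and 0 by DESeq2 and by limma-voom. The CPM ranges of the groups were separate for IGHA1 and CD79B alone among the 10, against 32.3% of all genes tested.

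IGHA1 encodes the constant region of IgA1, the main IgA of serum (chromosome 14, 105703995 to 105708665, minus strand). Its level was 8.25, 4.60 and 8.02 CPM for DMSO libraries 1 to 3 and 15.02, 10.4 and 16.9 CPM for Mi-2 libraries 1 to 3. Each Mi-2 library lay above each DMSO library, and library 2 was the lowest in both groups. IGHA1 rose 2.03-fold (log2 fold change 1.02 ± 0.25, SE, edgeR adjusted p = 0.0289). In TPM the same libraries gave 10.9, 6.55 and 10.1 under DMSO and 20.9, 13.96 and 22.3 under Mi-2. The call was lost when library 2 of DMSO (log2 fold change 0.79, edgeR adjusted p = 0.0781), library 3 of DMSO (0.0649), library 1 of Mi-2 (0.0964) or library 3 of Mi-2 (0.0766) was left out, and by limma on log2(TPM + 1) (0.0587) or log2(TPM + 0.1) (0.0544).

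IGHA2, the constant gene of IgA2 (chromosome 14, 105583731 to 105588395, minus strand), stood at 2.83, 1.72 and 2.12 CPM under DMSO and 4.22, 1.81 and 2.77 CPM under Mi-2. The groups overlapped, and it did not pass (log2 fold change 0.40 ± 0.34, edgeR adjusted p = 0.495). The longest annotated coding sequences of IGHA1 and IGHA2 have 1194 and 1173 bases in 4 coding exons (chr14:105704391-105708665 and chr14:105584157-105588395, minus strand, GRCh38, GENCODE 29). Forms with 3 coding exons (1059 and 1020 bases) were not compared. The longest sequences are 96.8% identical over 1155 aligned bases, and 32.7% of 50-base windows of IGHA1 occur in IGHA2. The stretch around the hinge, which IgA1 has in a longer form, is where they differ most visibly, by 39 bases that the alignment finds in IGHA1 alone; differing bases are in capitals.
IGHA1: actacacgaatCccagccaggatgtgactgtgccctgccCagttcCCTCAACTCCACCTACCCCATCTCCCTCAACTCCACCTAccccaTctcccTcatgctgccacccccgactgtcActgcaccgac
IGHA2: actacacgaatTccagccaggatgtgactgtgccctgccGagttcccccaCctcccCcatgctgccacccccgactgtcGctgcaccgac
The estimated counts of the 2 genes were fractional in most libraries but their sum was whole in each, at 223, 143 and 220 under DMSO and 424, 283 and 469 under Mi-2. The fractions thus cancelled within the pair. IGHA1 held 75.4 ± 3.39% of the pair's counts under DMSO and 83.1 ± 4.42% under Mi-2 (SD, n = 3), with overlapping ranges. With the pair counted as 1 gene, an analysis chosen after the data were seen, the log2 fold change was 0.89 ± 0.24 (edgeR adjusted p = 0.0407).

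**Figure D2:**
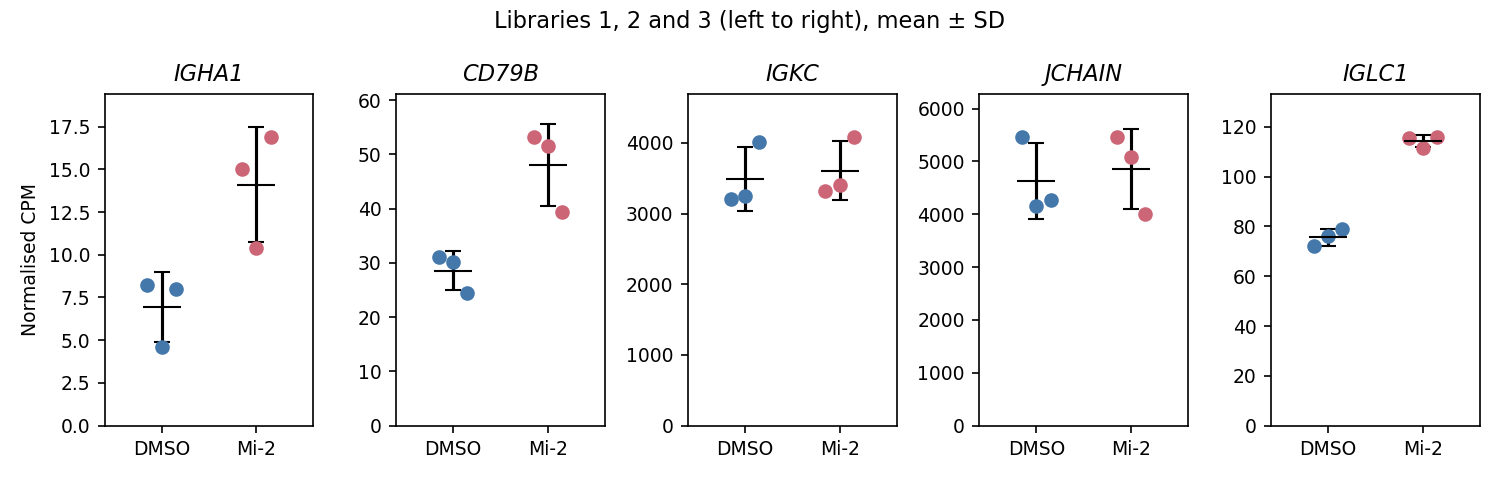
Normalised CPM of IGHA1, CD79B, IGKC, JCHAIN and IGLC1 (linear axes from 0) in each library, libraries 1, 2 and 3 from left to right, with mean ± SD (n = 3). The groups are apart for IGHA1 (4.60 to 8.25 against 10.4 to 16.9 CPM), CD79B and IGLC1 and overlap for IGKC and JCHAIN.

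CD79B, a signalling chain of the B-cell receptor (chromosome 17, 63928740 to 63932354, minus strand), rose 1.68-fold. Its level was 31.1, 30.1 and 24.4 CPM for DMSO libraries 1 to 3 and 53.2, 51.5 and 39.3 CPM for Mi-2 libraries 1 to 3. The groups were separate and library 3 was the lowest in each. The log2 fold change was 0.75 ± 0.14 (edgeR adjusted p = 0.011). Removing Mi-2 library 1 ended the call (edgeR adjusted p = 0.0513), as did limma on log2(TPM + 1) (0.101) or log2(TPM + 0.1) (0.0965), where the DMSO libraries were spread from 29.9 to 49.4 TPM and the Mi-2 libraries from 52.6 to 72.3 TPM. Its partner CD79A (chromosome 19, 41877120 to 41881372, plus strand) had 8, 6 and 8 counts under DMSO and 5, 6 and 9 counts under Mi-2. That is 0.380 to 0.570 TPM, under the filter on low counts, and CD79B exceeded it 60.9 to 172 times in TPM over the 6 libraries.

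The light chain and joining chain genes with the highest levels did not pass the test. IGKC had 3205, 3252 and 4013 CPM under DMSO and 3323, 3408 and 4084 CPM under Mi-2. In each group library 3 stood above the other libraries by more than the groups differed. The log2 fold change was 0.05 ± 0.13 (edgeR adjusted p = 0.851). JCHAIN had 5465, 4157 and 4275 CPM under DMSO and 5462, 5081 and 4010 CPM under Mi-2 (0.07 ± 0.15, edgeR adjusted p = 0.816). Its groups overlapped over nearly their whole range. All 414 immunoglobulin segment rows together took 0.835 ± 0.0451% of counts under DMSO and 0.780 ± 0.0759% under Mi-2 (SD, n = 3), and 5.33 ± 0.146% and 4.60 ± 0.345% of TPM. The share of TPM was lower in each Mi-2 library than in any DMSO library, and the share of counts overlapped. The TPM difference lay mostly with 1 variable segment, IGKV3-15. All rows differed by -0.734 points of TPM, IGKC and IGKV3-15 together by -0.747 points, and IGKC alone by -0.0255 points.

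IGKV3-15, the expressed kappa variable segment, had 4652, 4786 and 4777 CPM under DMSO and 3877, 3890 and 4392 CPM under Mi-2. Every Mi-2 library was below every DMSO library, as in TPM (32.3% of all genes tested had separate CPM ranges), but the difference did not pass (log2 fold change -0.23 ± 0.10, edgeR adjusted p = 0.163). Per unit of IGKC its TPM was 2.22, 2.19 and 1.81 under DMSO and 1.75, 1.67 and 1.58 under Mi-2. The ratio was lower in each Mi-2 library than in any DMSO library, the nearest values being 1.81 and 1.75. A kappa chain joins a variable segment to IGKC, so these rows can be parts of the same RNA rather than separate genes. The cause of the shift in the ratio was not tested. IGKV3D-15 (-0.44 ± 0.14, edgeR adjusted p = 0.0691) and IGKV3D-11 (0.67 ± 0.21, 0.074) had values of opposite sign and did not pass either. IGKV3D-15 passed by DESeq2 (adjusted p = 0.0307), in edgeR with no filter on low counts (0.00761) and in edgeR without DMSO library 3 (0.0377).

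Lambda constant genes were measured at lower levels than kappa. IGLC2 had 0.845, 1.37 and 0.461 CPM under DMSO and 0.635, 1.21 and 0.461 CPM under Mi-2 (difference in log2 -0.22 ± 0.50, edgeR adjusted p = 0.823), with the 2 groups overlapping throughout. IGLC3 had at most 5.71 counts in a library and was at 0 in DMSO library 1 and Mi-2 library 2. IGLC2 and IGLC3 (chromosome 22, 22900976 to 22901437 and 22906342 to 22906803, plus strand) differ at 3 of 317 coding bases, and 54.1% of the 50-base windows of each occur in the other, so their split is uncertain. Lambda variable rows held 16 to 28 counts per library over 76 rows, most of them in IGLV3-9.

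The lambda constant gene with the highest level was IGLC1, a gene outside the 10, at 72.1, 76.1 and 78.8 CPM under DMSO and 115, 112 and 116 CPM under Mi-2. It rose 1.51-fold (0.59 ± 0.08, edgeR adjusted p = 0.0035) with separate groups and kept its call with any library left out. IGLC1 (chromosome 22, 22895375 to 22895834) lies within IGLL5 (22887780 to 22896107), a gene related to the surrogate light chain, and all 50-base windows of the IGLC1 coding sequence also occur in that of IGLL5, so the division of reads between them rests on the counting. IGLL5 itself had 336, 336 and 358 CPM under DMSO and 402, 362 and 363 CPM under Mi-2 and did not pass (0.13 ± 0.08, edgeR adjusted p = 0.358). With the counts of both summed, also chosen after the data were seen, the log2 fold change was 0.23 ± 0.08 and the call was lost (edgeR adjusted p = 0.113).

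IGHG1 (chromosome 14, 105736343 to 105743071, minus strand) had 5 counts or fewer in each library and no count in DMSO library 2 and Mi-2 library 1. Among the 16 other constant and surrogate light chain genes, 3 passed the filter: IGLC1, IGLL5 and IGHE. IGHE, the IgE constant gene, had 48, 24 and 27 counts under DMSO and 18, 18 and 32 counts under Mi-2 (difference in log2 -0.67 ± 0.41, edgeR adjusted p = 0.33), with overlapping groups. IGHD, the IgD constant gene that is read together with IGHM in B cells, had no count, and neither had IGLL1, the surrogate light chain gene of pre-B cells.

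**Figure D3:**
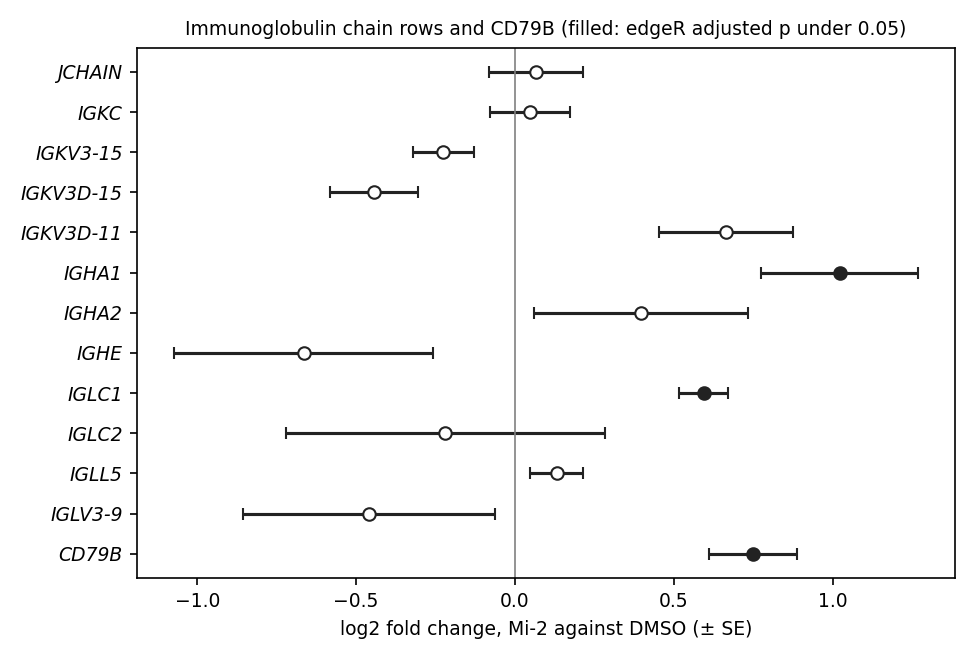
Log2 fold change (Mi-2 against DMSO, ± SE, 3 libraries per group) of the immunoglobulin rows that passed the filter on low counts, JCHAIN and CD79B. Filled points, IGHA1, IGLC1 and CD79B, passed an edgeR adjusted p of 0.05, and IGKC and JCHAIN lie near 0 at 0.05 and 0.07.

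**Figure D4:**
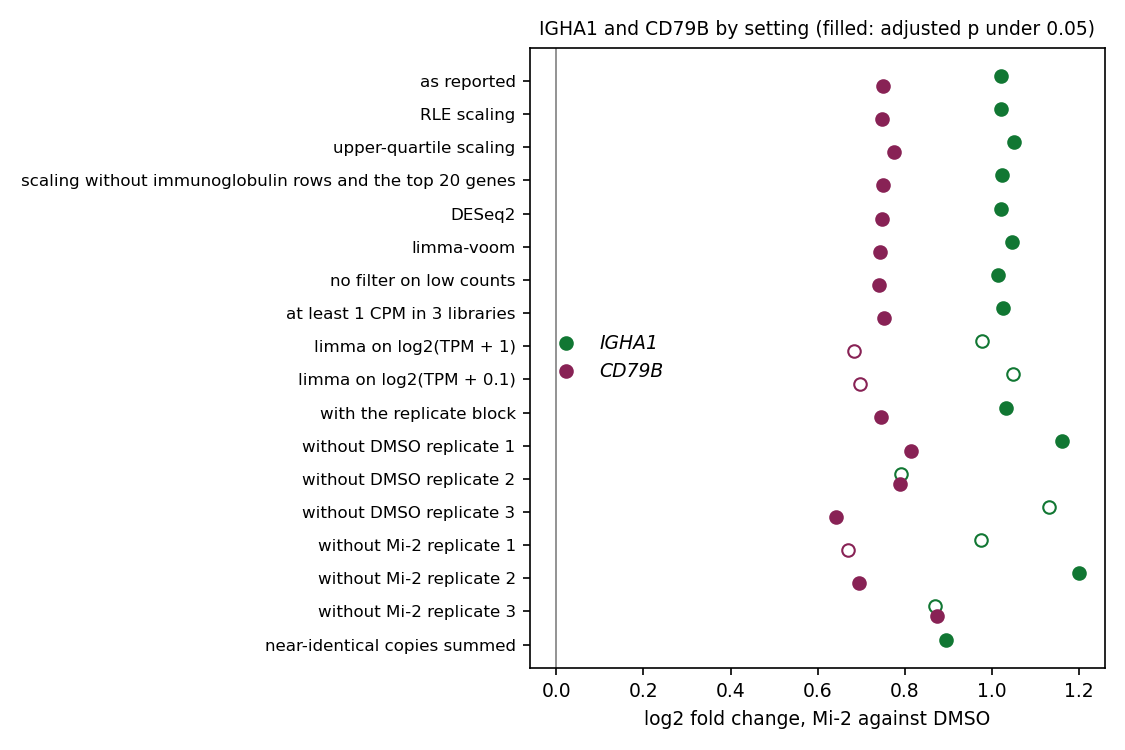
Log2 fold change of IGHA1 (green) and CD79B (purple) as reported and under each alternative analysis, filled where the adjusted p is under 0.05. All values are positive, from 0.79 to 1.20 for IGHA1 and from 0.64 to 0.87 for CD79B, and open points mark the lost calls.

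Around the receptor, most signalling genes did not pass. Of 24 tested co-receptor and proximal signalling genes, 3 rose and 1 fell, with a median of 0.08. Over all genes tested 5.02% rose and 6.03% fell, and whether the list differs from them was not tested. SHC1, an adaptor that links receptors to RAS, rose 1.97-fold (338 ± 39.2 CPM under DMSO and 667 ± 57.7 CPM under Mi-2, SD, n = 3). RASGRP3, a RAS activator, rose 1.69-fold, and FYN, a SRC-family kinase, 1.43-fold. PIK3AP1, an adaptor of PI3-kinase, fell 1.74-fold from 4.61 to 2.64 CPM, and it lost its call with any library other than DMSO library 1 left out (edgeR adjusted p up to 0.155), with upper-quartile scaling (0.0539), by limma-voom (0.0547), and by limma on log2(TPM + 1) (0.197) or log2(TPM + 0.1) (0.21). FYN was not called without Mi-2 library 1 (edgeR adjusted p = 0.0565). SYK, the kinase that binds the phosphorylated CD79 chains, did not pass the filter on low counts and was at a mean of 0 TPM under DMSO and 0.0133 TPM under Mi-2. BTK (5.05 and 5.39 TPM) and PLCG2 (34.6 and 38.7 TPM), which act further down, had log2 fold changes of 0.17 ± 0.14 and 0.08 ± 0.14.

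Of 18 tested regulators of immunoglobulin gene transcription, 1 rose, near the 5.02% over all genes tested, and the median was 0.11. That gene was IRF4, a factor of plasma cell identity that also acts at light chain enhancers (1726 ± 140 CPM under DMSO and 2192 ± 26.6 CPM under Mi-2, a log2 difference of 0.35 ± 0.09, edgeR adjusted p = 0.0441). It was called when DMSO library 1 was left out but not when any other library was (edgeR adjusted p up to 0.165), nor by limma on log2(TPM + 1) (0.0799) or log2(TPM + 0.1) (0.0766). POU2AF1, the octamer-site co-activator, had 0.28 ± 0.11 (edgeR adjusted p = 0.127), and XBP1 had -0.19 ± 0.15 (0.479). Of 14 tested genes listed for processing of heavy chain RNA into its secreted or membrane form, 3 fell. The list was not divided by which form a gene favours. All 14 had negative values (median -0.15). Over all genes tested 6.03% fell and the median was 0.00496. CSTF2, a subunit of the cleavage stimulation factor, had -0.40 ± 0.09, HNRNPH1 -0.37 ± 0.08 and HNRNPF -0.32 ± 0.09. The count of the 14 that fell was 0 or 1 with any single library left out, and 0 by limma on either TPM scale. It was 0 without library 2 or 3 of DMSO or library 1 of Mi-2. The tables give 1 value per gene, so secreted and membrane forms were not measured here.

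Genes that fold and assemble antibody chains were mostly higher. Of 20 tested, 14 rose (5.02% of all genes tested rose), with a median of 0.52 against 0.00496 over all genes tested. They included MZB1, a plasma cell co-chaperone of heavy chains (734 ± 66.5 CPM under DMSO and 1192 ± 110 CPM under Mi-2, 1.62-fold), DNAJB9, a co-chaperone of BiP (2.13-fold), HYOU1 (1.69-fold) and the disulfide oxidase gene ERO1B (1.78-fold). Fewer passed with a library removed: 6 lacking DMSO library 2, 7 lacking DMSO library 3 and 6 lacking Mi-2 library 1. Over all genes, calls higher fell from 808 to 246, 275 and 216 with those libraries removed. By limma, 8 folding genes passed on log2(TPM + 1) and 9 on log2(TPM + 0.1).

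Of 8 tested Fc receptors and transporters, FCRL2 and FCRL3 fell (-3.33 ± 0.31 and -3.23 ± 0.23), against 6.03% of all genes tested. The polymeric IgA receptor PIGR and the IgA Fc receptor FCAR, which did not pass the filter on low counts, had mean TPM of at most 0.0567 in either group. Of 8 tested genes listed for class switching and somatic hypermutation, 5 fell (6.03% of all genes tested fell), with a median of -0.42. Those named here act in general DNA repair: UNG, a uracil glycosylase (2.05-fold lower), RIF1 (1.59-fold), the mismatch repair gene MSH6 (1.45-fold) and APEX2, an abasic site endonuclease (-0.38 ± 0.10). Leaving out library 3 of DMSO, or library 1 or 2 of Mi-2, gave 3, and so did limma on either TPM scale.

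**Figure D5:**
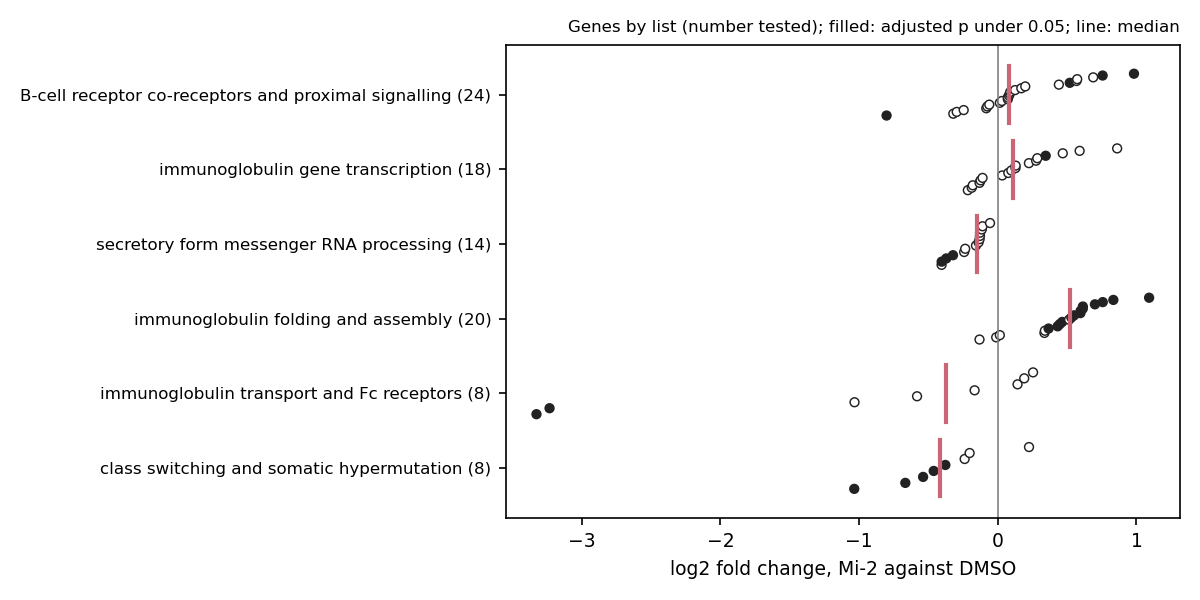
Log2 fold change (Mi-2 against DMSO) of each tested gene in 6 lists around the antibody chains, filled where the edgeR adjusted p is under 0.05, with the median of each list as a red line. The folding and assembly genes have a median of 0.52 and the 14 genes listed for secreted-form RNA processing all lie below 0. The median over all genes tested was 0.00496.

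Among the genes whose level followed IGKC most closely over the 6 libraries were RPS28 (Pearson r = 0.99), NUDCD3 (0.986) and SNHG32 (0.981), of 5785 genes whose average log2 CPM reached 5. For JCHAIN they were ATP6V1E1 (0.986), ITGA4 (0.983), DPY19L1 (0.982), USP47 (0.98) and DPM1 (0.98). Each had a log2 fold change of at most 0.11. The points share libraries and depth, and these genes are among the highest of many compared.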

How the data were processed

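RNA was extracted with TRIzol and sequenced as paired-end libraries on a NovaSeq, per the labels' protocols. The submitters' processing notes name RSEM 1.3.3, StringTie 2.1.0, HISAT2 2.1.0 and fastp 0.19.5, and build GRCh38.p13, without roles (RNA selection, strand and annotation release: not given in the sources used here). Deposited by the authors were estimated counts per gene, which divide reads of near-identical genes among them, and a TPM table, corrected for gene length. Symbols came from a table of IDs for 62625 rows and from GENCODE 29 for 72. Coordinates and coding sequences are those of GENCODE 29 on GRCh38.

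Estimated counts were rounded. Genes were filtered with filterByExpr (minimum count 10, minimum total 15), scaled by TMM and tested with edgeR 4.0.16 (R 4.3.3), Mi-2 against DMSO in 6 libraries. CPM are TMM-normalised. The biological coefficient of variation was 14.2%. Immunoglobulin rows are those typed so in GENCODE 29 or, for rows with no type there, those with a matching symbol. Pseudogenes and segments outside the main loci are included. Coding sequences were aligned with Biopython 1.88. Alternatives used DESeq2 1.42.0 and limma 3.58.1, among others given below. Within groups, chi-square per degree of freedom between libraries was 15.04 to 21.15, so none was a copy. No rearranged chain was assembled, so variable segments are those of the reference. The test was also run on counts simulated with the same biological coefficient of variation for all genes and with independent libraries. Real libraries may depart from both. Members and lists were chosen with earlier results of these data known. Named genes were all members and the leading variable segment of each locus. Of each list, up to 4 called genes in a direction were named, by size of change, where the average log2 CPM reached 1. IGKV3D-15, IGKV3D-11, IGLL5, IGHE, IGHD, IGLL1, CD38, DERL3, APEX2, BTK, PLCG2, SYK, POU2AF1, XBP1, PIGR and FCAR were named after their values were seen. Some genes and sequences that the rule covers are not reported here.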

Additional observations from a re-analysis of the deposited data

How the results depend on the processing

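RLE and upper-quartile scaling, scaling without immunoglobulin rows and the 20 highest genes, DESeq2, limma-voom and a filter of 1 CPM in 3 libraries left the 2 rises among the members in place. With no filter on low counts edgeR called 1221 genes higher and 1541 lower, and the member count stayed at 2. Limma on log2(TPM + 1) called 229 higher and 381 lower, and on log2(TPM + 0.1) 249 and 398, and each called 0 members; the cause was not tested. With any library left out, 216 to 715 genes were called higher and 302 to 866 lower, and 0 to 2 members higher (0 without Mi-2 library 1). IGKC and JCHAIN, near 0, changed sign: IGKC was -0.0212 on either TPM scale and ran from -0.0523 to 0.15 with a library left out, JCHAIN from -0.0262 to 0.20 and IGLC2 from -0.71 to 0.24. The immunoglobulin share differed by -0.055 percentage points of counts (-0.0988 to -0.0292 with a library left out) and by -0.734 points of TPM. The difference in TPM lay mostly with IGKV3-15. With the library number as a block, 1791 genes were called higher and 2035 lower and 2 members higher, with IGKV3-15 (adjusted p = 0.0121), IGKV3D-15 (0.0272) and IGKV3D-11 (0.0348) also called. The numbers were not taken as pairs because the labels name no shared culture, day or batch. Same-numbered libraries deviated together for numbers 1 and 3 (r = 0.409 and 0.261) but hardly for 2 (0.0593). Between libraries of unlike number r ran from -0.326 to 0.0795. These values do not settle whether same-numbered libraries belong together. IGHM, IGHG1, IGLC3 and CD79A had too few counts to pass the filter, and changes within those few counts were not detectable at this depth.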
